A study of Drosophila melanogaster with 35 samples.

Results

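CLAMP iCLIP peaks from the chromatin and the nucleoplasm of Kc cells were compared. All peaks listed for these fractions were taken, 874 from chromatin and 546 from nucleoplasm, together 1420 of the 3235 peaks in the 5 lists of the series. The 8 peaks of the Kc cytoplasm list are given beside them. Kc is a female Drosophila cell line grown in culture, and the series sets it beside S2, a male line. CLAMP, a zinc-finger DNA-binding protein with a preference for GA repeats, recruits the dosage compensation complex to the male X chromosome, and the series asks which RNAs it contacts in each sex. In every group cells were irradiated with ultraviolet light of 254 nm, split into chromatin, nucleoplasm and cytoplasm, and used for precipitation with an antibody to CLAMP or with no antibody. No genotype change or drug treatment is given for any group. Each Kc fraction had 4 CLAMP libraries. The no-antibody libraries were 1 for Kc chromatin, 2 for Kc nucleoplasm and 2 for Kc cytoplasm.

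Each fraction is represented by 1 pooled list with no read counts, so read depth is unknown and no value has a spread between replicates. The labels of all 4 chromatin CLAMP libraries and of 3 of the 4 nucleoplasm CLAMP libraries name the list of their fraction. The 1 no-antibody chromatin library names the chromatin list and the nucleoplasm list, and 1 of the 2 no-antibody nucleoplasm libraries names the nucleoplasm list. The sources used here do not say which libraries went into a list. No list of no-antibody peaks was used, so contact with CLAMP itself is not shown for any peak. All p-values compare the 2 lists as they stand and treat peaks as independent. The number of peaks in a list depends on the amount of RNA, the depth and the calling, so shares of each list were compared and total numbers were not tested.

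iCLIP marks RNA positions that ultraviolet light joins to a protein. Chromatin fractions hold nascent transcripts and the RNAs that stay with the template, and nucleoplasm holds RNAs released from it. Ribosomal RNA is transcribed in the nucleolus as a precursor whose spacers are removed. H/ACA snoRNAs guide pseudouridine formation in that RNA and C/D snoRNAs guide ribose methylation. Transfer RNAs carry amino acids to the ribosome, spliceosomal snRNAs form the core of the splicing machinery, and copia is a retrotransposon with long terminal repeats.

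Small non-coding RNAs and transposable elements, the latter mainly through copia, took a larger share of the chromatin list than of the nucleoplasm list. Small RNA exons held 96 chromatin peaks, 11% of the list (Wilson 95% interval 9.08 to 13.2%), and 34 nucleoplasm peaks, 6.23% (4.49 to 8.58%). The odds ratio was 1.84 (1.23 to 2.76; Fisher's exact test with Benjamini-Hochberg adjustment, adjusted p = 0.0264). Transposable elements held 27 peaks (3.09%) and 5 peaks (0.916%), an odds ratio of 3.19 (1.27 to 8.03; Fisher's exact, adjusted p = 0.0491). The copia family held 21 of these 27 chromatin peaks and 1 of the 5 in nucleoplasm, while the 3S18 family had 0 and 3. Copia copies are near-identical, so their peaks are not independent sites, and the result for this class rests largely on that family. Small RNA exons and transposable elements were 2 of the 11 annotation classes tested (18.2%), and 0 classes passed in the other direction. Coding sequence was the class that leaned most to nucleoplasm by p-value, with 18 chromatin peaks (2.06%) and 24 nucleoplasm peaks (4.4%), an odds ratio of 0.461 (0.249 to 0.851) and a Fisher's exact p of 0.015 before and 0.0552 after adjustment. All intervals cover counting error only.

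The largest classes were similar in share in both fractions. Exons of rRNA held 283 chromatin peaks (32.4%) and 187 nucleoplasm peaks (34.2%; Fisher's exact, adjusted p = 0.595), and their odds ratio of 0.919 had an interval from 0.733 to 1.15. Scaffolds without annotation held 242 (27.7%) and 177 (32.4%; Fisher's exact, adjusted p = 0.14), and intergenic peaks were 128 and 77. Counting every peak in rRNA genes, in the X rDNA block or on scaffolds as rDNA, 639 chromatin and 437 nucleoplasm peaks belonged to it, which left 235 and 109 peaks elsewhere. The scaffolds without annotation are counted with rDNA here by rule, and their content was not shown. The calls for small RNAs and transposable elements were lost among these 235 and 109 peaks, with odds ratios of 1.51 (Fisher's exact, adjusted p = 0.212) and 2.51 (adjusted p = 0.153). There the lower CDS share of chromatin passed the test, with 18 of 235 against 24 of 109 peaks (odds ratio 0.297, Fisher's exact, adjusted p = 0.0031).

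**Figure D1:**
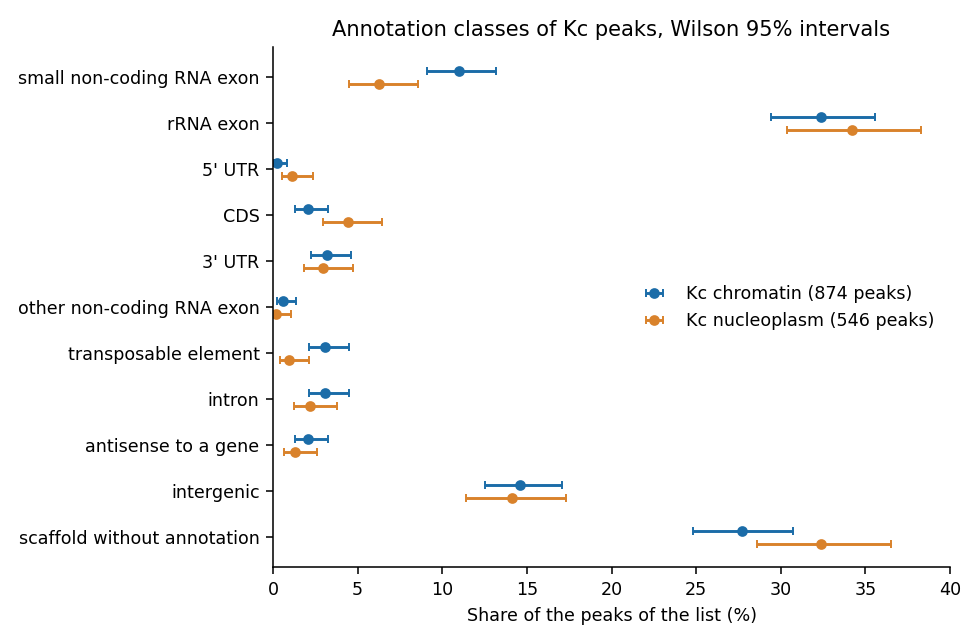
Share of each Kc peak list (x axis, percent) in each annotation class (y axis), with chromatin in blue and nucleoplasm in orange, and bars giving Wilson 95% intervals. Small RNA exons stand at 11% and 6.23% and rRNA exons at 32.4% and 34.2%.

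Peak widths differed between the lists outside rDNA. The median was 58 nt in chromatin and 58.5 nt in nucleoplasm over all peaks, but 41 nt and 36 nt outside rDNA. Peaks under 30 nt made up 10.6% of the chromatin and 32.1% of the nucleoplasm peaks there. For CDS peaks, 1 of 18 in chromatin and 12 of 24 in nucleoplasm were under 30 nt, and for introns 3 of 27 and 6 of 12. Among peaks of at least 30 nt the calls for small RNAs and transposable elements were lost, with odds ratios of 1.71 and 3.58 (Fisher's exact, adjusted p = 0.0669 for each), and the CDS odds ratio was 0.829.

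H/ACA snoRNAs were the small RNA type that set chromatin apart. They had 31 peaks in 24 of 117 annotated genes in chromatin and 1 peak in 1 gene in nucleoplasm. That was 3.55% of chromatin peaks against 0.183% of nucleoplasm peaks, an odds ratio of 13.6 (2.63 to 70.1; Fisher's exact, adjusted p = 2.68e-05 over 7 small RNA types). It was the 1 type called of the 7 tested (14.3%), and the call held in every alternative run. C/D snoRNAs had 18 peaks in 17 genes and 7 peaks in 7 genes of 118, with an odds ratio of 1.55 (0.661 to 3.65; Fisher's exact, adjusted p = 1). The intervals of the H/ACA and C/D odds ratios overlap, and the difference between the 2 box types was not tested.

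By their names, 15 of the 24 H/ACA RNAs with a chromatin peak guide modification of 28S rRNA, 6 of 18S rRNA and 2 of snRNA (scaRNA:PsiU2-55 and scaRNA:PsiU6-40), and Or-aca3 has no target in its name. The annotation holds 60, 46, 6 and 5 such genes. Peaks gathered at particular places along these RNAs of 133 to 268 nt. Of the 31 chromatin peaks, 13 began within the first 5 nt of the gene, 5 ended within the last 5 nt, and 13 did neither. Between these, many peaks lay just past the middle, such as Psi28S-2149 at nucleotides 73 to 110 of 144, Psi28S-3385b at 75 to 109 of 140 and Psi28S-3305a at 74 to 112 of 150. In chromatin 7 genes had 2 peaks. In Psi28S-1135e these lay at the 5' end (nucleotides 1 to 29) and the 3' end (112 to 150 of 151), and in Psi28S-2566 at the 5' end (1 to 27) and at 75 to 120 of 268.

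Several neighbouring H/ACA genes were covered together in chromatin. Psi28S-3305a, Psi28S-3405d and Psi28S-3305c on 3R, Psi28S-3385b, Psi28S-3091b and Psi28S-3186 on 3R, and Psi28S-1135f, Psi28S-1135e and Psi18S-1854a on the X each formed a group of 3 genes spaced by less than 5000 nt, all with chromatin peaks and none with a nucleoplasm peak. The only H/ACA RNA in the nucleoplasm list was Psi18S-1295, with a peak at 3R 20822609 to 20822656 that had the same start and end in chromatin. Of the 31 chromatin peaks, 2 overlapped a peak of the S2 chromatin list. H/ACA genes with similar names can be near copies of each other, and the sources used here do not say how reads that match several copies were placed.

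C/D snoRNA positions were partly the same in both fractions. Of 7 nucleoplasm peaks, 4 overlapped a chromatin peak, in Me28S-A1322, Or-CD4, Or-CD12 and U3:54Ab. U3, which directs early cleavage of the rRNA precursor, had chromatin peaks at nucleotides 88 to 204 of U3:54Ab and at 30 to 84 and 112 to 170 of U3:9B. In nucleoplasm, U3 peaks lay at 106 to 191 of U3:54Ab and 116 to 180 of U3:54Aa. The gene cluster with gene starts from 2R 14621782 to 14624253 had 4 C/D genes with a chromatin peak (Me18S-C1366, Me18S-A1061, Me28S-G2703b and Or-CD4) and 2 with a nucleoplasm peak (Me28S-G2703a and Or-CD4).

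Transfer RNAs had peaks in one and the same stretch of the molecule in both fractions. Nuclear tRNA genes held 28 chromatin and 17 nucleoplasm peaks, 1 per gene, of 290 annotated genes, and their share of the lists did not differ by the test (odds ratio 1.02, 0.556 to 1.87; Fisher's exact, adjusted p = 1). Every one of these 45 peaks ended within 5 nt of the 3' end of its gene or beyond it. They began at a median of nucleotide 33 in chromatin (range 21 to 51) and nucleotide 34 in nucleoplasm (24 to 51), and none reached the first 5 nt. Mitochondrial tRNAs showed the same layout, with 8 chromatin peaks starting between nucleotides 10 and 36 and 4 nucleoplasm peaks starting between 16 and 43, all ending at the 3' end.

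Not all tRNA species with peaks were found in both fractions. By anticodon, 12 nuclear species had a chromatin peak and 9 a nucleoplasm peak, and 5 had both: Ala-TGC, Met-CAT, Pro-CGG, Ser-AGA and Thr-CGT. Asn-GTT and Glu-TTC had peaks in 4 genes each in chromatin and in 0 genes in nucleoplasm, and Asp-GTC and Phe-GAA in 3 genes each and 0. Glu-CTC had peaks in 0 genes in chromatin and 3 in nucleoplasm, and Arg-CCT in 0 and 2. Among the shared species, Met-CAT had 3 and 2, Ser-AGA had 3 and 4, and Thr-CGT had 3 and 1 of its 3 annotated genes. Copies with the same anticodon are often near-identical in sequence, so the number of genes is not a number of independent sites, and these counts were not tested.

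**Figure D2:**
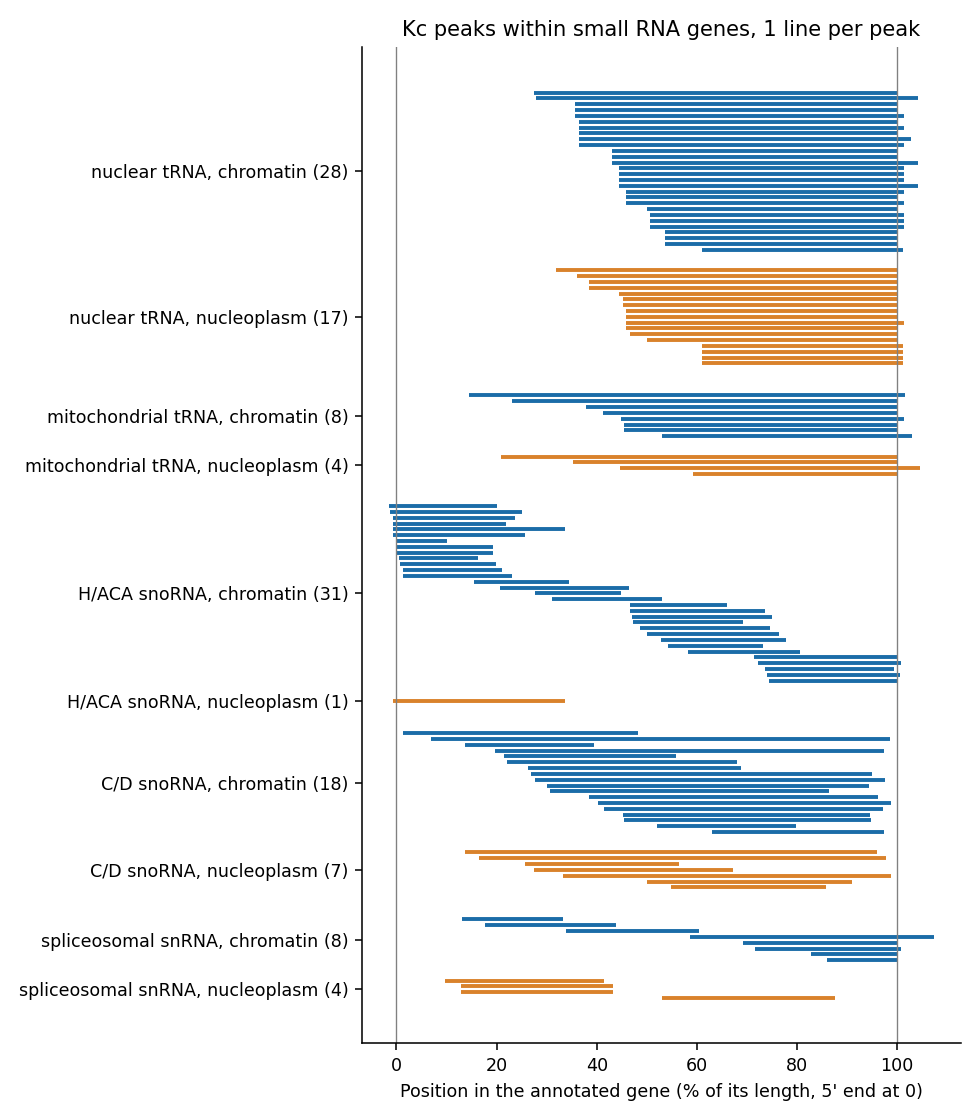
Extent of each Kc peak (1 line per peak) along its small RNA gene, as percent of the gene length with the 5' end at 0 (x axis), for chromatin (blue) and nucleoplasm (orange), with the number of peaks in parentheses. All 45 nuclear tRNA peaks end at the 3' end of the gene, and 13 of the 31 H/ACA peaks in chromatin begin at the 5' end.

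Spliceosomal snRNAs had 8 chromatin peaks and 4 nucleoplasm peaks, with an odds ratio of 1.18 (0.375 to 3.73; Fisher's exact, adjusted p = 1). U1, which recognises the 5' splice site, had a peak in 1 of its 5 genes in chromatin (U1:82Eb, nucleotides 30 to 72 of 164) and in 3 genes in nucleoplasm, where U1:21D and U1:95Ca were covered at 22 to 71 and U1:95Cb at 17 to 68. These U1 peaks lay on one stretch in both fractions. U2, which pairs with the branch point, had peaks in 4 of 6 genes in chromatin and 1 in nucleoplasm. In 3 of the 4, U2:34ABb, U2:38ABb and U2:38ABa, the chromatin peak ended at the 3' end of the RNA. In U2:34ABa chromatin peaks covered nucleotides 26 to 64 and 66 to 116 and the nucleoplasm peak 103 to 168. U5 had peaks in 2 of 7 genes in chromatin (U5:34A and U5:63BC, both reaching the 3' end) and 0 in nucleoplasm, and U4 and U6 had 0 in both. 7SKa, an RNA that holds the elongation factor P-TEFb inactive, had 1 chromatin peak and 0 in nucleoplasm.

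Among transposable elements, most chromatin peaks were in copia. This family had 21 of the 27 chromatin peaks, in 16 of its 39 annotated copies, and 1 of the 5 nucleoplasm peaks. Jockey, a retrotransposon without terminal repeats, had 3 chromatin peaks, and Doc and Tabor 1 each. The other chromatin peak lay at nucleotides 137 to 184 of 5145 in RR51007, an insertion annotated without a family name. Its length and offset are near those of the copia peaks given below, but it was not counted as copia. In nucleoplasm the family with most peaks was 3S18, with 3 peaks of 43 nt in 3 copies, which had 0 in chromatin. The 3S18 peaks lay at nucleotides 2160 to 2202 in 2 copies and 2161 to 2203 in the other, which is nearly the same offset.

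By annotated position, copia peaks fell in 3 parts of the element, and in the last part they lay at several offsets. In chromatin, 6 peaks in 6 copies started between nucleotides 137 and 144 and ended between 188 and 192, within the first terminal repeat. A further 11 peaks in 11 copies lay in the interior, and the 10 in copies of full length ran from nucleotides 2613 to 2694 to nucleotides 2650 to 2839. The last 310 nt held 4 peaks in 3 copies. In 3 copies, copia{}372 among them, both the first and the interior zone had a peak. The nucleoplasm peak, in copia{}324, covered nucleotides 2662 to 2794 and overlapped the chromatin peak at 2664 to 2826 of the same copy, which lies in an intron of the transglutaminase gene Tg. The copies are near-identical, so the copy from which an RNA came cannot be told, and the 21 peaks are not independent sites. Of the 27 chromatin peaks in transposable elements, 4 overlapped a peak of S2 chromatin.

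**Figure D3:**
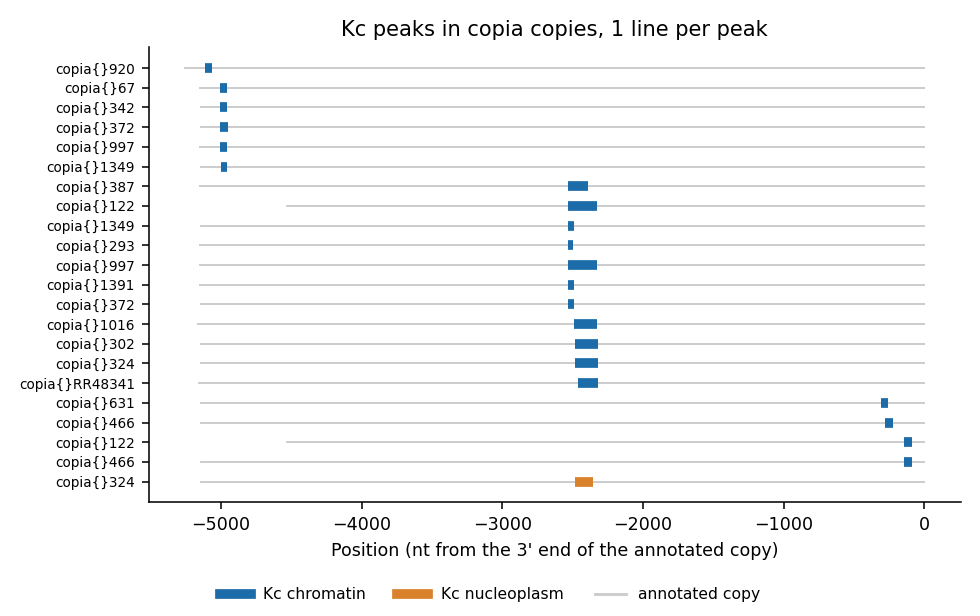
Kc peaks along copia copies, with 1 row per peak and the position in nt from the 3' end of the annotated copy (x axis, grey line for the copy). The 21 chromatin peaks (blue) lie in the first 300 nt, the interior or the last 310 nt, and the 1 nucleoplasm peak (orange) is in the interior zone.

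Ribosomal RNA genes were covered in both fractions, and in the full-length copies more of the length lay inside chromatin peaks. Of 36 nuclear rRNA genes other than 5S, 33 had a chromatin peak and 29 a nucleoplasm peak, and 29 had both. The 3 full-length 18S copies of 1995 nt on the rDNA scaffold had 68.8%, 39.4% and 49.4% of their length inside a chromatin peak (CR41548, CR45838 and CR45841), with 628, 652 and 863 nt inside nucleoplasm peaks. The full-length 28S copy CR45844 had 2430 of 3970 nt in chromatin peaks (61.2%) and 1484 nt in nucleoplasm peaks. Of these 1484 nt, 82.7% were also inside a chromatin peak.

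Along the 3 full-length 18S copies, some stretches were covered in every copy of both lists and others in chromatin peaks alone. Peaks of both fractions covered all 3 copies over 227 nt (11.4% of the RNA), mainly at nucleotides 244 to 305, 432 to 458, 1271 to 1331 and 1369 to 1435. Chromatin peaks covered all 3 copies with no nucleoplasm peak in any over 202 nt (10.1%), at 1149 to 1227, 1637 to 1684, 1715 to 1731 and 1892 to 1949. The reverse pattern was found over 0 nt. By a looser rule there were such stretches: nucleotides 1 to 44 and 773 to 797 lay in nucleoplasm peaks of all 3 copies. In chromatin they lay in a peak of CR41548 alone. Chromatin had more rDNA peaks, 639 against 437, which bears on how often each pattern can arise. The 2 other 18S copies, annotated as pseudogenes on the X, differ in length and were not aligned to these. In the one of 1934 nt (CR45861), a nucleoplasm peak at 1834 to 1901 lay near the 3' end together with a chromatin peak at 1831 to 1898, so the chromatin-alone stretch at 1892 to 1949 may not hold there. The copies share nearly all of their sequence and are not replicates, so the pattern is given as a description.

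**Figure D4:**
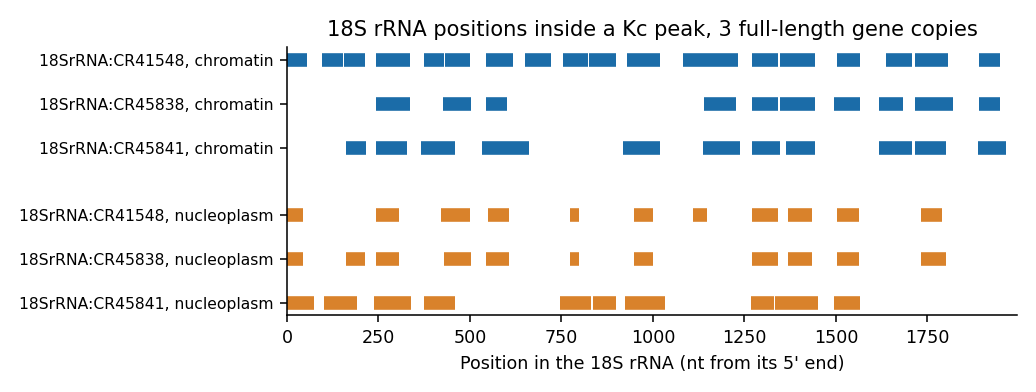
Positions of the 18S rRNA (x axis, nt from the 5' end) inside a Kc peak, for 3 full-length gene copies in chromatin (blue) and nucleoplasm (orange). The stretches at 1149 to 1227 and 1892 to 1949 are covered in all 3 copies in chromatin and in none in nucleoplasm.

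Within annotated pre-rRNA genes, spacers of the rRNA precursor, which are cut away during maturation, had 29 chromatin and 3 nucleoplasm peaks. That was 4.54% of the 639 rDNA peaks of chromatin (Wilson 95% interval 3.18 to 6.44%) and 0.686% of the 437 of nucleoplasm (0.234 to 2%). The chromatin peaks were spread over the 5' external spacer (10 peaks), internal spacer 1 (10 peaks) and internal spacer 2 or the stretch beyond the 2S rRNA gene (9 peaks). Nucleoplasm had 0, 1 and 2. Spacer peaks were taken by their midpoint, and the chromatin peaks at 46328 to 46373 and 58777 to 58822 of the rDNA scaffold run into a 2S gene. By unit, pre-rRNA:CR45845 had 7 chromatin peaks in its 5' external spacer, while all 3 nucleoplasm spacer peaks lay in pre-rRNA:CR45847, which had 1 spacer peak in chromatin. With each peak given to 1 gene by overlap, in place of its midpoint, pre-rRNA:CR45845 had 14 chromatin peaks and 1 nucleoplasm peak, pre-rRNA:CR45846 8 and 1, pre-rRNA:CR45856 7 and 1, and pre-rRNA:CR45847 1 and 4. Only 1 of the 29 overlapped a nucleoplasm peak, against 59.8% of all rDNA peaks of chromatin. The spacer regions were set apart after their values had been seen, so no test was made. Spacers outside annotated pre-rRNA genes could not be recognised. Peaks in no rRNA gene numbered 97 in chromatin and 71 in nucleoplasm in the X rDNA block (11.1% and 13% of the lists). They numbered 16 and 4 on the rDNA scaffold, and 242 and 177 peaks lay on scaffolds without annotation. The 5S rRNA, made by RNA polymerase III from genes on 2R, had peaks in 4 of 100 genes in chromatin and in 0 in nucleoplasm, where a count of 0 allows a share of up to 0.549% of the list. Peaks antisense to an rRNA gene on the rDNA scaffold numbered 12 and 2. The mitochondrial rRNAs had 7 and 3 peaks in mt:lrRNA and 4 and 1 in mt:srRNA.

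Protein-coding transcripts had few peaks in either fraction, and few coding genes had peaks in both. Exons of mRNAs held 48 chromatin peaks, 5.49% of the list (Wilson 95% interval 4.17 to 7.21%), and 46 nucleoplasm peaks, 8.42% (6.38 to 11.1%). Chromatin targets included 72 coding genes and nucleoplasm targets 60, of 13986 annotated, and 6 had peaks in both. Over all gene types, 1.09% of the 18358 annotated genes had a chromatin peak, 0.686% a nucleoplasm peak and 0.267% both. The 3' UTR held 28 and 16 peaks (3.2% and 2.93%; Fisher's exact, adjusted p = 0.875), the 5' UTR 2 and 6 (0.229% and 1.1%; adjusted p = 0.14), and introns 27 and 12 (3.09% and 2.2%; adjusted p = 0.571).

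In most of the 6 coding genes named in both lists, the peaks lay in different places of the transcript. The hnRNP gene sqd, whose protein acts in mRNA localisation, had more peaks than any other coding gene. Its 3' UTR carried 5 chromatin peaks of 35 to 41 nt, and its single nucleoplasm peak at 3R 13641619 to 13641668 lay 995 nt from the nearest of them. The actin gene Act5C had a chromatin peak in the 3' UTR (X 5904263 to 5904283) and a nucleoplasm peak in the 5' UTR (X 5900935 to 5900971). In aqz, too, chromatin peaks were in the 3' UTR (3R 8815013 to 8815053 and 8816331 to 8816382) and the nucleoplasm peak in the 5' UTR (3R 8818983 to 8819009). The adaptor protein gene 14-3-3zeta had a 3' UTR peak in each, 128 nt apart. Rab10, which encodes a small GTPase of membrane traffic, was the coding gene with an overlapping exonic peak, at X 20252414 to 20252438 in chromatin and 20252415 to 20252439 in nucleoplasm. In Tg the overlap was the copia insertion described above.

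Genes for RNA-binding proteins were among the coding genes with peaks in each fraction. Of 15 hnRNP and splicing regulators in the list used, 4 had a chromatin peak (26.7%) and 1 a nucleoplasm peak (6.67%), beside 0.515% and 0.429% of all annotated coding genes. These were sqd, the Nova homologue ps, the polypyrimidine tract binding protein heph, in an intron, and the RNA helicase Rm62, in its CDS. The gene lists were chosen with earlier results of these data known. The choice itself can raise their shares over that of all coding genes, so no enrichment can be read from them. Of 12 translation factors, pAbp (poly(A)-binding protein, 3' UTR) and eIF3c (CDS) had a chromatin peak and 0 a nucleoplasm peak, while eIF3b, which the list does not hold, had 1 nucleoplasm peak and 0 in chromatin. Outside the lists, some genes were picked after their values were seen, and they are not a full count of their kind. Among them, AGO1 and gw, which act in microRNA silencing, each had 1 chromatin peak in the 3' UTR. The RNA-binding protein genes Larp4B, vig2 and Tis11 each had 1 nucleoplasm peak in the CDS and 0 in chromatin. Ribosomal protein genes had peaks in 4 of 92 in chromatin (among them RpL15 and RpS18 in the CDS) and 1 in nucleoplasm (RpL41, a peak of 23 nt). The transcription factor gene lola and the guidance ligand gene sli had 2 intronic chromatin peaks each. The non-coding gene lncRNA:CR42862 had 3 chromatin peaks on 3L between 226507 and 229536 and 0 in nucleoplasm.

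In nucleoplasm alone, peaks lay in the CDS of Myc (25 nt), of the mRNA decay factor Tis11 (40 nt), of Cam (calmodulin, 49 nt), of the calcium pump SERCA (32 nt) and of eIF3b (27 nt). The 6 nucleoplasm peaks in a 5' UTR were in Act5C, aqz, chic (profilin), foxo, pho (a DNA-binding Polycomb group protein) and CG8668. Chromatin had 5' UTR peaks in Cipc and Dlg5. The heat-responsive lncRNA:Hsromega had 1 nucleoplasm peak and 0 in chromatin. Of 8 cytoskeleton genes, 2 had a peak in each fraction, Act5C and kst in chromatin and Act5C and chic in nucleoplasm. Of 11 chromatin and insulator genes, lola had chromatin peaks and pho a nucleoplasm peak. Of all annotated coding genes, 0.515% had a chromatin peak and 0.429% a nucleoplasm peak. As these lists, too, were chosen with earlier results of these data known, no enrichment can be read from them.

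Among 10 dosage compensation genes, which include roX1 and roX2, the RNAs of the male X complex, 0 had a peak in either fraction. With 1.09% and 0.686% of all annotated genes carrying a peak, a list of this size can have none at the background share. Of 10 sex determination genes, 2 had a nucleoplasm peak and 0 a chromatin peak. These were Sxl, the female switch gene and a splicing regulator, in an intron (X 7096195 to 7096242, 48 nt), and fru in an intron (3R 18446533 to 18446560, 28 nt). Hemocyte genes (0 of 9), markers of neuron, germ line and muscle (0 of 8) and replication histones (0 of 111) had no peak in either list, so these lists gave no positive marker of the line. On the Y chromosome, which a female line is not expected to carry, chromatin had 2 peaks, both intergenic and 1 of them overlapping an S2 chromatin peak, and nucleoplasm had 0. The X share of peaks on chromosome arms outside rDNA was 13.9% in chromatin and 16.8% in nucleoplasm (Fisher's exact p = 0.501). Of the coding target genes, 9 of 72 and 12 of 60 were X-linked (p = 0.339 by Fisher's exact test). Of the 10 chromosome units tested, 0 passed (0%), and the lowest was 3L with 4.46% of chromatin and 2.2% of nucleoplasm peaks (Fisher's exact p = 0.0276 before and 0.276 after adjustment).

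Shared positions lay mainly in rRNA genes and on scaffolds. By an overlap of at least 1 nt on the same strand, 401 of 874 chromatin peaks (45.9%, Wilson 95% interval 42.6 to 49.2%) overlapped a nucleoplasm peak, and 392 of 546 nucleoplasm peaks (71.8%, 67.9 to 75.4%) overlapped a chromatin peak. In the rDNA set, scaffolds included, the shares were 59.8% and 85.4%. They were 165 of 283 and 163 of 187 for annotated rRNA exons, and 156 of 242 and 156 of 177 for scaffolds without annotation. Outside rDNA they were 19 of 235 (8.09%) and 19 of 109 (17.4%). Among those 19 positions were nuclear tRNAs (Ser-AGA-2-4, Ser-AGA-2-2, Met-CAT-1-1, Met-CAT-1-4 and Thr-CGT-1-3), the snoRNAs named above, U2:34ABa, the mitochondrial tRNA Ser-GCT and both mitochondrial rRNAs. Sharing was scored by genome coordinate. The same stretch of an RNA on different gene copies, as in U1 above, was therefore not counted as shared. No position in a 3' UTR, a 5' UTR or an intron was shared, with 0 of 28, 0 of 2 and 0 of 27 chromatin peaks. Start and end were identical for 9 peaks, 2 of them outside rDNA, and the second of these was antisense to CG1695 at X 20443159 to 20443182.

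**Figure D5:**
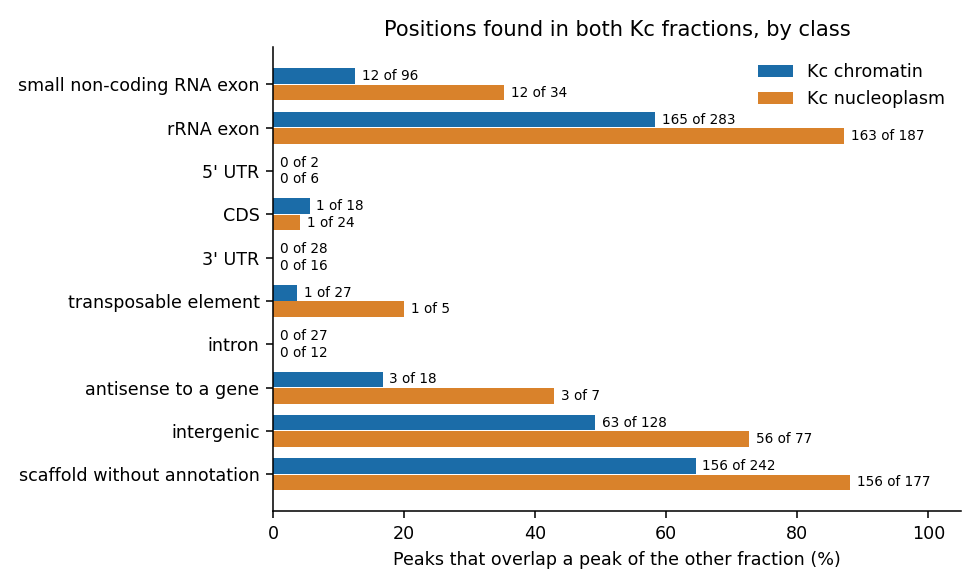
Share of each Kc list that overlaps a peak of the other fraction (x axis, percent) by annotation class (y axis; the class of other non-coding RNA exons, with 5 and 1 peaks, is left out), with counts beside the bars. Nucleoplasm rRNA exon peaks reach 87.2%, and 3' UTR, 5' UTR and intron peaks are at 0.

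The step from nucleoplasm to chromatin differed between the lines for 8 of the 11 classes (72.7%; Zelen's exact test for equality of odds ratios, Benjamini-Hochberg adjusted) with all peaks. Without rDNA the calls for rRNA exons, 5' UTR, 3' UTR, transposable elements, introns and intergenic peaks were lost, and at 30 nt or more those for the same classes except 3' UTR. CDS kept its call in every alternative run. For CDS the odds ratio of chromatin over nucleoplasm was 0.461 in Kc and 15.9 in S2 (adjusted p = 2.02e-12 by Zelen's exact test). For 3' UTRs it was 1.08 in Kc and 14.2 in S2, a ratio of 0.0763 (adjusted p = 9.26e-06 by the same exact test), and without rDNA the ratio was 0.294 (adjusted p = 0.175 by the exact test). Small RNA exons had odds ratios of 1.84 in Kc and 2.01 in S2, and Zelen's exact test found no difference (adjusted p = 0.97). Without rDNA the Kc odds ratio was 9.47 times that of S2 (adjusted p = 2.66e-07 by the exact test). For H/ACA snoRNAs they were 13.6 and 1.39 (adjusted p = 0.508 by the exact test), and 0 of the 7 small RNA types passed (0%).

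Many Kc positions in small RNAs recurred in the male line, but those in H/ACA snoRNAs and in mRNAs did so rarely. Of 96 chromatin peaks in small RNAs, 39 (40.6%) overlapped a peak of S2 chromatin. By type these were 18 of 28 nuclear tRNA peaks and 8 of 18 C/D snoRNA peaks, but 2 of 31 H/ACA snoRNA peaks. Of 34 nucleoplasm peaks in small RNAs, 22 (64.7%) overlapped a peak of S2 chromatin and 5 (14.7%) one of S2 nucleoplasm. Of the mRNA exon peaks, 2 of 48 from Kc chromatin and 0 of 46 from nucleoplasm overlapped a peak of S2 chromatin, and 0 and 0 one of S2 nucleoplasm. The differences in this between small RNA types, and between small RNAs and mRNAs, were not tested. The S2 lists have 1416 and 391 peaks, and their size bears on how many positions can overlap.

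The Kc cytoplasm list had 8 peaks, too few for a comparison. Of these, 7 lay in rDNA, in 18S (CR41548, CR45838 and CR41602), 28S and 5.8S genes, at 1 intergenic position and on 1 scaffold, and each overlapped a peak of the other Kc lists. The other peak, of 55 nt, was in tRNA:Asn-GTT-1-6 at 2R 6162540 to 6162594 and overlapped no peak of either nuclear fraction. The chromatin list had peaks in 4 other Asn-GTT genes. Such copies are often near-identical, so the tRNA species is not particular to the cytoplasm list.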

How the data were processed

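Per the labels' protocols, the libraries are fractionated iCLIP processed with a Galaxy CLIP workflow. STAR 2.5.2b-2, cutadapt 3.5, UMI-tools and FastQC are named, per the submitters' processing notes, with dm6 as the build. The sources used here do not name the peak caller, its threshold or the treatment of reads with several matches. The deposited lists give coordinates, strand and a score, and the deposited score is 0 in all 5 lists, so it was not used. Peaks were placed on Ensembl release 115 (Python 3.11.15, numpy 2.4.6, scipy 1.17.1, matplotlib 3.10.9). All coordinates are dm6 and 1-based. A class was taken for each peak at its midpoint on its own strand, with exons of RNAs under 500 nt first and intergenic last, and each peak had at most 1 target gene. The rDNA scaffold was matched to the annotation by inference: 92% of its plus-strand chromatin peaks and 96.2% of nucleoplasm peaks fell in annotated rRNA genes. The X rDNA block was taken as X 23200802 to 23538283. Two-sided Fisher's exact tests were adjusted over 11 classes, 7 small RNA types and 10 chromosome units at a threshold of 0.05. Zelen's exact test compared the lines. Odds ratios had a continuity correction of 0.5 and Woolf intervals, and other intervals are Wilson intervals. The tests were checked on simulated lists with peaks drawn independently. That check does not cover peaks that repeat over near-identical gene copies, as in these lists. Members and gene lists were chosen with earlier results of these data known. The genes named were those with most peaks in each list, in both or in 1, those of the cytoplasm list, and members of the gene lists, with others chosen after their values were seen. No genome sequence was used here, so no peak sequences are shown.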

Additional observations from a re-analysis of the deposited data

Results flagged for a closer look

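In 8 annotation classes the step from nucleoplasm to chromatin differed between Kc and S2 by Zelen's exact test for equality of odds ratios, adjusted over 11 classes. The values are the Kc odds ratio divided by the S2 odds ratio. By this exact test the ratio was below 1 for CDS (0.029, adjusted p = 2.02e-12), 3' UTR (0.0763, adjusted p = 9.26e-06), 5' UTR (0.0595, adjusted p = 0.00541), intron (0.126, adjusted p = 0.0109) and transposable element (0.0791, adjusted p = 0.0398). By the same exact test it was above 1 for scaffolds without annotation (3.33, adjusted p = 1.81e-11), rRNA exon (1.77, adjusted p = 0.00301) and intergenic (1.68, adjusted p = 0.0398). S2 nucleoplasm had 0 of 391 peaks in transposable elements, so that ratio depends on the continuity correction. Without rDNA the calls for rRNA exon, 5' UTR, 3' UTR, transposable element, intron and intergenic were lost, and at 30 nt or more those for the same classes except 3' UTR. Shares of 1 list sum to the whole, so the 8 results are not independent, and each line and fraction has 1 list.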

How the results depend on the processing

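No paired analysis was possible because each fraction has 1 pooled list and no values per library, and for the same reason no replicate could be left out. Peaks of identical sequence could not be counted once, and motifs could not be searched, since no genome sequence was used here. Among peaks of at least 30 nt, the odds ratios of chromatin over nucleoplasm were 1.71 for small RNA exons and 3.58 for transposable elements (adjusted exact p = 0.0669 for each), and 0.971 for intergenic, 0.967 for nuclear tRNA, 0.991 for snRNA and 1.37 for 2L, which each turned direction without a call. Without rDNA they were 1.51 for small RNAs, 2.51 for transposable elements and 0.297 for CDS, which then passed, and 1.2 for rRNA, 0.778 for 3' UTR, 0.538 for antisense, 0.726 for nuclear tRNA, 0.876 for mitochondrial tRNA and for snRNA, 0.879 for 2R and 0.784 for X, turned and uncalled. With strand ignored, CDS passed at 0.471 (adjusted exact p = 0.044).

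For the ratio of the Kc to the S2 step, calls were lost at 30 nt or more for rRNA (1.39), 5' UTR (0.113), transposable elements (0.103), introns (0.102) and intergenic (1.54), and without rDNA for rRNA (3.13), 5' UTR (0.24), 3' UTR (0.294), transposable elements (0.329), introns (0.509) and intergenic (1.58). Without rDNA the small RNA ratio turned from 0.917 to 9.47 (adjusted exact p = 2.66e-07). The CDS call held in every alternative run. The cause of these changes was not tested.

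The shared share of chromatin peaks was 41.3% for an overlap of at least 50% of the shorter peak, 57.4% within 50 nt, 1.03% for identical ends and 8.09% without rDNA, and that of nucleoplasm peaks 66.5%, 78.9%, 1.65% and 17.4%, with 76.7% at 30 nt or more. With copies counted once by name, 27 genes in place of 49 were targets in both lists.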
